A study of Mus musculus with 2 samples.

Results

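Core thermogenic genes, those that carry or specify heat production in fat, were followed in 2 libraries of white fat from obese mice. The genes were Ucp1, Cidea, Ppargc1a, Prdm16, Dio2, Elovl3, Cox8b, Fabp3, Otop1 and Ebf2. They were chosen by name and found by Ensembl identifier, and all 10 were among the 37315 genes listed in the deposited counts. Of these 10 genes, 9 reached a mean of at least 1 CPM (reads of a gene scaled to a fixed library size) over both libraries, as did 13361 of all genes, and Dio2 did not.

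The tissue was inguinal white fat, a subcutaneous depot, of male C57BL/6 mice aged 23 weeks whose obesity came from a high-fat diet. The vehicle group and the entacapone group each held 1 library and shared strain, sex, age and diet. Entacapone blocks catechol-O-methyltransferase, an enzyme that degrades catecholamines, and is also known to inhibit the m6A demethylase FTO. The dose, the length of treatment, the number of mice per library and the housing temperature were not stated in the labels. A single library per group leaves no replicate error and no test, and every difference below is one between 2 libraries. Intervals are exact 95% intervals that cover counting error only, and a gene is called higher or lower beyond counting error where its interval excludes a ratio of 1.

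Brown and beige fat cells burn fuel to make heat. Noradrenaline from sympathetic nerves acts on beta-adrenergic receptors, raises cAMP and turns on both lipolysis and transcription of thermogenic genes, and UCP1 then lets protons flow back into the mitochondrial matrix without making ATP. Inguinal fat is the depot in which such beige cells appear most readily in mice, while warmth and obesity keep their number low.

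The promoters of 5 of these genes are shown because the cAMP signal reaches thermogenic genes through their control regions, and because these 5 genes went both ways. Ucp1 and Dio2 had fewer reads in the entacapone library, and Ppargc1a, Cox8b and Fabp3 had more. Each sequence is the 250 bases before the transcription start in RefSeq (GRCm38.p6), on the gene's own strand, at chr8:83290098-83290347 (plus strand), chr12:90739039-90739288 (minus), chr5:51567726-51567975 (minus), chr7:140900447-140900696 (minus) and chr4:130308488-130308737 (plus). Capitals mark matches to the motifs listed after the sequences.
Ucp1: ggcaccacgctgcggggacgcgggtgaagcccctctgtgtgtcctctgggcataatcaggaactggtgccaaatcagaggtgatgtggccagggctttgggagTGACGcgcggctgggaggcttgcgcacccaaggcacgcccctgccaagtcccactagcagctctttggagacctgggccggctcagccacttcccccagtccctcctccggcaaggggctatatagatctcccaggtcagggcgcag
Dio2: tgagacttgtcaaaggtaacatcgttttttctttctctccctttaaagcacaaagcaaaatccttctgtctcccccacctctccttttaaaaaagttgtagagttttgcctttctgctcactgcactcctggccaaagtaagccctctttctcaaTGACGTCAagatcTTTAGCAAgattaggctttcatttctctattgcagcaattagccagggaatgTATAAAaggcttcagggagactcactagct
Ppargc1a: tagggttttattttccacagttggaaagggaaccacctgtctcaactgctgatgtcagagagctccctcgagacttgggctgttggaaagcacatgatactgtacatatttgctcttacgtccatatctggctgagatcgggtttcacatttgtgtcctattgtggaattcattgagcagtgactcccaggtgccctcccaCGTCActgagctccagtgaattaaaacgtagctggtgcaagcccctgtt
Cox8b: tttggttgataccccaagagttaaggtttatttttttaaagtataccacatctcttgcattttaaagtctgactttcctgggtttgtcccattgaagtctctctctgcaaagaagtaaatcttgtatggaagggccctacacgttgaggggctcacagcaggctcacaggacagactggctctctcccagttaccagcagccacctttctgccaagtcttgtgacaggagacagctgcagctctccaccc
Fabp3: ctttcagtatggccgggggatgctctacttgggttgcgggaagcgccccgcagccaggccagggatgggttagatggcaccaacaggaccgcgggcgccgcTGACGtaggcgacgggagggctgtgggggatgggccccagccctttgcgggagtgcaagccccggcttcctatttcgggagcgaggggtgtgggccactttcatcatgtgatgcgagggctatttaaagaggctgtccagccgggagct

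Promoters of 7 of the 10 genes were searched. Elovl3 and Ebf2 were not matched, and Cidea was left out because chromosome 18 was excluded from the search of these genes. Exact matches on both strands were sought for the cAMP response element TGACGTCA and its half-site TGACG, the ERR element TCAAGGTCA, the EBF core CCCNNGGG, the C/EBP core TTGCNNAA, direct repeats of AGGTCA spaced by N (the PPAR element) or NNNN (the thyroid hormone element), the TATA box TATAAA and the GC box GGGCGG. The half-site was added after the sequences were seen, and it lies within the full element. Dio2 held the full cAMP element, starting 95 bases before its start, which 1.55% of 32851 promoters of the same length also held. It also held a C/EBP core match 82 bases and a TATA box 30 bases before the start, motifs found in 9.56% and 12.4% of promoters. The half-site stood 147 bases before the start in Ucp1, 49 in Ppargc1a and 149 in Fabp3, against a share of 17.8% of all promoters. Half-site matches were thus present in genes with more and with fewer entacapone reads, and the 250 bases of Cox8b held none of the 9 motifs. In Prdm16 and Otop1 the only match was a GC box (220 and 11 bases before the start, 32.7% of promoters). The RefSeq starts of Ucp1, Ppargc1a, Fabp3, Otop1 and Dio2 differ from the gene positions given below, so these distances hold for the RefSeq starts only. The Ucp1 window ends at 83290347 and its gene starts at 83290352. The Ppargc1a window begins at 51567726, the end position of its gene. The Fabp3 window runs past the start of its gene at 130308595. The Otop1 window (38277154 to 38277403) lies inside its gene, and the Dio2 window begins at 90739039, apart from its gene end at 90738438. These are matches of letters and say nothing on binding.

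The 10 genes divided by direction. Cidea, Cox8b, Ppargc1a and Fabp3 had higher levels in the entacapone library, with ratios between 1.79-fold and 2.11-fold. Ucp1 and Elovl3 had lower levels, by 5.21-fold and 3.40-fold, on at most 45 reads per library. With a pseudocount of 0.5 CPM their log2 ratios were smaller, at -1.74 for Ucp1 and -1.11 for Elovl3. Prdm16 was modestly lower, and Ebf2, Otop1 and Dio2 lay within counting error. Of the 9 genes measured, 4 were higher and 3 lower beyond counting error, where 20.2% of all measured genes were higher and 21.1% lower. At a limit of at least 1.5-fold together with the interval, 4 were higher against 4.16% of all measured genes and 2 were lower against 7.9%. At 2-fold, 1 was higher (Fabp3, background 1.66%) and 2 were lower (Ucp1 and Elovl3, background 3.5%). Ucp1 and Elovl3 reached the minimum mean only through the vehicle library, at 0.625 and 0.469 CPM in the entacapone library. In the range of 1 to 5 CPM that holds Ucp1 and Elovl3, 10.7% of genes were at least 2-fold lower beyond counting error. The median log2 ratio of the 9 genes was -0.19, beside 0.00 over all measured genes, and the mean was -0.04 for both. In bulk tissue fewer cells of a type and less RNA per cell cannot be told apart.

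**Figure D1:**
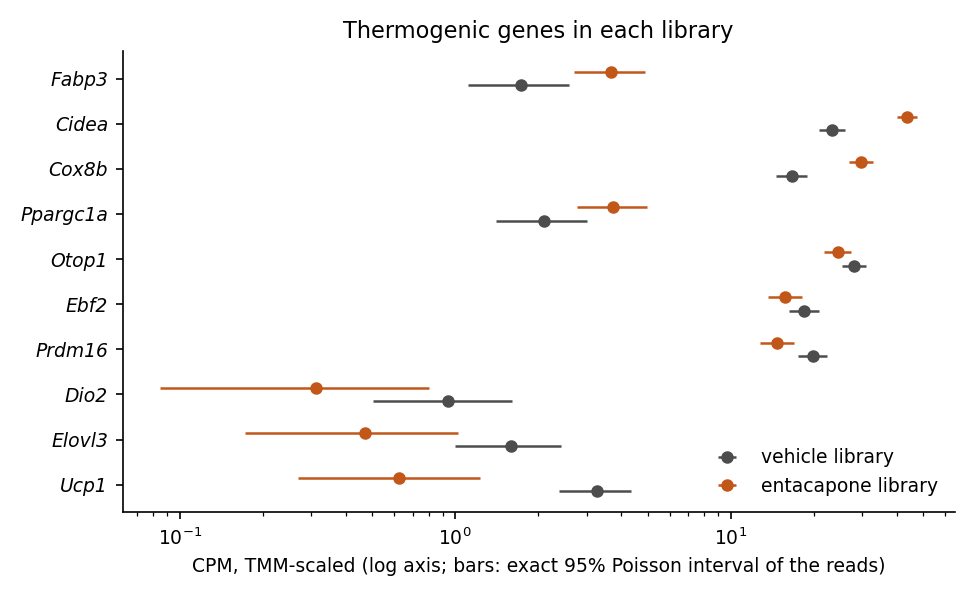
Level of each thermogenic gene in CPM (horizontal log axis) in the vehicle (grey) and the entacapone library (orange), with bars for the exact 95% Poisson interval of the reads in 1 library each. The intervals of the libraries lie apart for Ucp1, Cidea, Cox8b, Fabp3 and Prdm16, and Cidea and Cox8b are the genes with both high levels and a wide gap.

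Ucp1, the uncoupling protein itself (chromosome 8, 83290352 to 83298452, plus strand, GRCm38), had 45 reads in the vehicle and 8 reads in the entacapone library, which is 3.26 and 0.625 CPM. The vehicle library was the high one, and the Poisson intervals of these levels (2.38 to 4.36 and 0.270 to 1.23 CPM) did not overlap. The log2 ratio was -2.38 (-3.68 to -1.28), and the bound nearest to no difference was 2.43-fold. Ucp1 stood 86th from the lowest among the 13361 ratios, in a range of low levels where large ratios were common: of 2599 genes with a mean of 1 to 5 CPM, 10.7% were at least 2-fold lower beyond counting error.

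Elovl3 elongates very long chain fatty acids and is strongly induced in cold-exposed brown fat, but is also expressed in sebaceous glands and in liver. It lies on chromosome 19 (46131897 to 46135694, plus strand). There were 22 vehicle and 6 entacapone reads, or 1.59 and 0.469 CPM. The vehicle level was higher, although the Poisson intervals of the levels just touched (0.998 to 2.41 and 0.172 to 1.02 CPM), and the log2 ratio was -1.76 (-3.36 to -0.42). Its exons share 10 bases with Pitx3 on the other strand, which had 21 and 19 reads. Hepatocyte markers were also lower in the entacapone library (median log2 ratio -2.89, all 16 measured, beside 21.1% of all measured genes). The part of hepatocyte transcripts in Elovl3 was not tested.

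Dio2 encodes the deiodinase that makes active thyroid hormone inside brown fat cells (chromosome 12, 90724552 to 90738438, minus strand). It had 13 vehicle and 4 entacapone reads, or 0.941 and 0.313 CPM, which is below the level set for comparison. Its log2 ratio of -1.59 (-3.66 to 0.10) had an interval that included 0, so a difference was not detectable at this depth.

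Cidea, a lipid droplet protein much used as a marker of brown and beige cells (chromosome 18, 67343604 to 67367785, plus strand), had 322 vehicle and 558 entacapone reads. The levels were 23.3 CPM (20.8 to 26.0) in the vehicle and 43.6 CPM (40.1 to 47.4) in the entacapone library, with no overlap of the intervals. The log2 ratio was 0.90 (0.70 to 1.11), the 289th highest of 13361. Among the 7020 genes whose mean was 20 CPM or more, 2.26% were at least 1.5-fold higher beyond counting error.

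Cox8b encodes the tissue-restricted form of cytochrome c oxidase subunit 8, found in brown fat, heart and skeletal muscle (chromosome 7, 140898945 to 140900446, minus strand). It had 230 and 381 reads, or 16.7 CPM (14.6 to 18.9) in the vehicle and 29.8 CPM (26.9 to 32.9) in the entacapone library. The entacapone library was again the high one, with a log2 ratio of 0.84 (0.60 to 1.08). Fabp3, the fatty acid binding protein of heart, muscle and cold-activated brown fat (chromosome 4, 130308595 to 130315463, plus strand), had 24 and 47 reads, or 1.74 and 3.67 CPM. Its log2 ratio was 1.08 (0.34 to 1.85), and its pseudogene Fabp3-ps1 had 0 reads in both libraries. Of its 823 exon bases, 81 are shared with Zcchc17 on the other strand, which had 488 and 454 reads, and the kit does not mark strand. Of 17 measured skeletal muscle markers, 16 also had higher entacapone levels beyond counting error (median 0.74 on the log2 scale), beside 20.2% of all measured genes. The part of muscle transcripts in Cox8b and Fabp3 was not tested.

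Ppargc1a encodes the coactivator PGC-1alpha, which drives mitochondrial biogenesis and acts on the Ucp1 enhancer (chromosome 5, 51454250 to 51567726, minus strand). It had 29 vehicle and 48 entacapone reads, or 2.1 CPM (1.41 to 3.02) and 3.75 CPM (2.77 to 4.97). The entacapone value was higher, with overlapping Poisson intervals of the levels and a log2 ratio of 0.84 (0.14 to 1.55). Of the 2599 genes with a mean of 1 to 5 CPM, 8.5% were at least 1.5-fold higher beyond counting error. The counts sum its 5 annotated transcripts, so isoforms were not separated.

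The genes of brown fat identity and Otop1 differed by at most 1.34-fold. Prdm16, the transcriptional regulator that holds brown and beige cells to their fate (chromosome 4, 154316125 to 154636873, minus strand), had 274 and 189 reads, or 19.8 CPM with vehicle and 14.8 CPM with entacapone. Its log2 ratio was -0.43 (-0.70 to -0.15), the lowest of the 3. Ebf2, a transcription factor that marks brown and beige precursors and opens their enhancers (chromosome 14, 67233292 to 67430918, plus strand), had 255 and 202 reads, or 18.5 and 15.8 CPM. Its log2 ratio was -0.23 (-0.50 to 0.05). Otop1, a proton channel gene that is enriched in brown fat (chromosome 5, 38275972 to 38304217, plus strand), had the most vehicle reads of the group at 387, against 313 entacapone reads, or 28.0 and 24.5 CPM, and a log2 ratio of -0.20 (-0.42 to 0.02). The intervals of Prdm16, Ebf2 and Otop1 overlapped one another and lay apart from those of all 4 genes with higher levels.

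**Figure D2:**
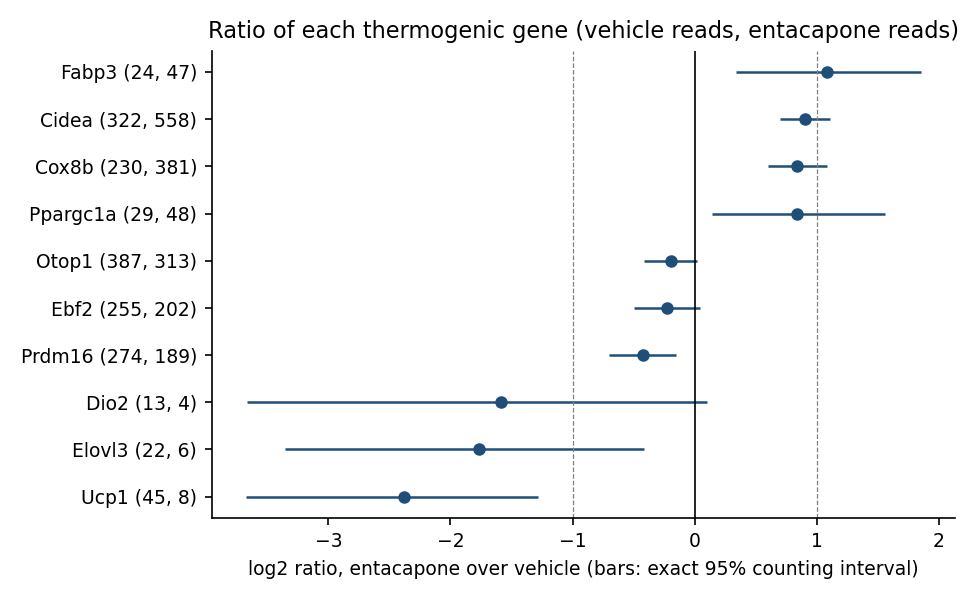
Log2 ratio of entacapone over vehicle for each thermogenic gene, with the exact 95% counting interval as bars, the reads of both libraries in brackets, and dashed lines at 2-fold. The 4 upper genes lie to the right of 0 and have intervals above 0, while Ucp1 and Elovl3 lie furthest to the left among the genes whose intervals exclude 0.

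Ratios between these genes within 1 library do not depend on how libraries are scaled. For every 100 Cidea reads there were 71.4 Cox8b reads (60.0 to 84.9) in the vehicle and 68.3 (59.8 to 77.9) in the entacapone library. Ppargc1a gave 9.01 (5.94 to 13.2) and 8.60 (6.27 to 11.6) reads per 100 Cidea reads. These proportions overlapped between the libraries. Ucp1 in contrast gave 14.0 (9.99 to 19.1) reads per 100 Cidea reads in the vehicle and 1.43 (0.616 to 2.84) in the entacapone library. Prdm16 gave 85.1 (72.2 to 100.3) and 33.9 (28.6 to 40.0). Otop1 gave 120.2 (103.4 to 139.8) and 56.1 (48.7 to 64.5), and Ebf2 gave 79.2 (66.9 to 93.6) and 36.2 (30.7 to 42.6). Otop1 and Ebf2 lay within counting error on their own, and Cidea, the divisor, was higher in the entacapone library. The reads of all 10 genes together made up 115.9 CPM with vehicle and 137.2 CPM with entacapone. Without Cidea and Cox8b, which were singled out after their values were seen, the sums were 75.9 and 63.8 CPM.

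Levels of different genes were compared per length, as TPM, the reads per length of merged exons scaled to the same total in each library. In the vehicle library the order ran from Cox8b at 137 TPM over Cidea at 62.1, Otop1 at 24.2, Ebf2 at 7.91, Prdm16 at 6.32, Fabp3 at 6.27, Ucp1 at 5.91, Elovl3 at 2.39 and Ppargc1a at 0.946 to Dio2 at 0.481 TPM. The Poisson intervals of neighbours from Ebf2 to Ucp1 overlapped, as did those of Ppargc1a and Dio2. By the exact interval of the ratio per length, Ebf2 lay above Prdm16 (1.25-fold, 1.05 to 1.49), whereas the ratios of Prdm16 to Fabp3 (1.01, 0.663 to 1.60), Fabp3 to Ucp1 (1.06, 0.618 to 1.78) and Ppargc1a to Dio2 (1.97, 0.991 to 4.12) had intervals that include 1. In the entacapone library Cox8b (233 TPM), Cidea (110.3) and Otop1 (20.04) again led, followed by Fabp3 at 12.6, Ebf2 at 6.43, Prdm16 at 4.47, Ppargc1a at 1.60, Ucp1 at 1.08, Elovl3 at 0.670 and Dio2 at 0.152 TPM. There the neighbours from Ppargc1a to Dio2 had overlapping Poisson intervals, and of their ratios only that of Elovl3 to Dio2 had an interval apart from 1 (4.42, 1.05 to 21.3). Fabp3 passed from the sixth to the fourth place, and Ppargc1a stood above Ucp1 in the entacapone library and below it in the vehicle library. Ucp1 ranked 9683rd of 18809 genes with reads by TPM in the vehicle library and 13525th of 18578 in the entacapone library, whereas Cox8b ranked 986th and 536th.

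**Figure D3:**
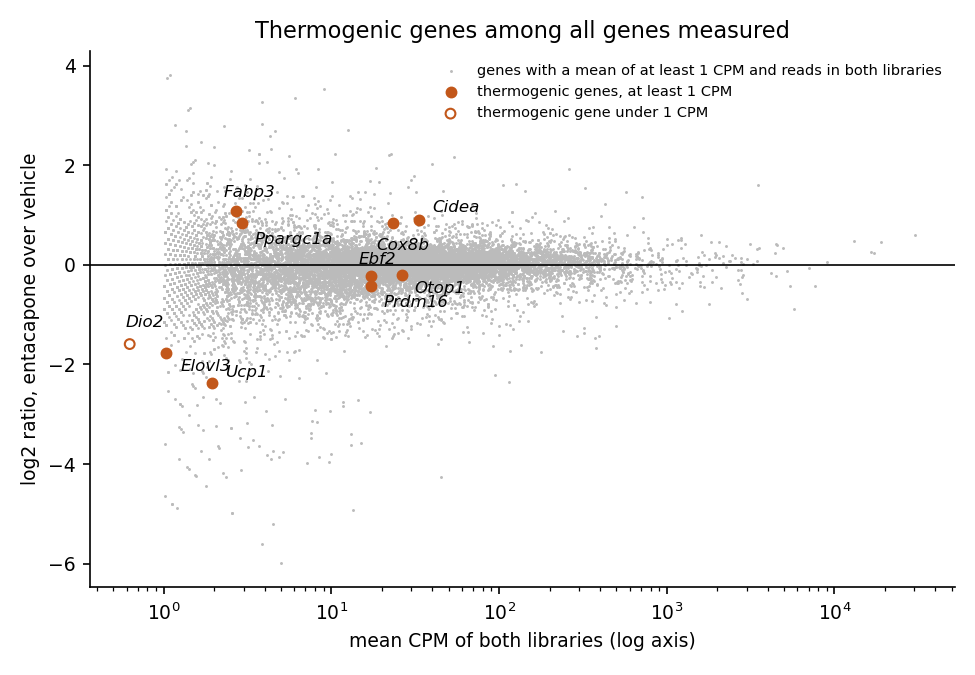
Log2 ratio of entacapone over vehicle (vertical) against the mean CPM of both libraries (horizontal, log axis) for all measured genes with reads in both libraries (grey) and the thermogenic genes (orange, open for Dio2, which is under 1 CPM). The spread of the grey points widens towards low levels, where Ucp1 and Elovl3 lie, and Cidea and Cox8b sit above most genes of their level.

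Each of these genes belongs to a family, and the paralogs give a comparison in the same libraries. Of 27 paralogs listed, 16 were measured, with 4 higher and 6 lower beyond counting error and a median log2 ratio of -0.07. Over all measured genes, 20.2% were higher and 21.1% lower. Ucp2, a widely expressed relative of Ucp1, had 207 and 201 CPM (log2 ratio -0.04, -0.12 to 0.03). Ucp3, which is known from muscle and brown fat, had 47.9 CPM with vehicle and 32.4 CPM with entacapone (-0.56, -0.74 to -0.38). Ucp3 was thus lower as well, with an interval apart from that of Ucp1, and at 45.3 TPM it stood above Ucp1 in the vehicle library.

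Cidec, the droplet protein of white adipocytes, was among the most abundant transcripts at 7194 and 6912 CPM, with a log2 ratio of -0.06 (-0.07 to -0.04) that did not follow Cidea. Cideb had 1 and 2 reads. Cox8a, the ubiquitous form of subunit 8, had 410 and 493 CPM and a log2 ratio of 0.27 (0.21 to 0.32), below the interval of Cox8b. Per length, Cox8a (1966 TPM) exceeded Cox8b (137 TPM) in the vehicle library. Fabp4, the adipocyte binding protein, had a log2 ratio of 0.25 (0.24 to 0.26) and Fabp5 one of -0.41 (-0.49 to -0.34), both outside the interval of Fabp3. Fabp1, the liver form, had 251 and 15 reads and a log2 ratio of -3.95 (-4.81 to -3.20).

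Ppargc1b, which encodes the related coactivator PGC-1beta, went the other way from Ppargc1a, with 60 and 36 reads (-0.63, -1.27 to -0.01), and Pprc1 was at 0.31 (0.10 to 0.53). The intervals of Ppargc1a and Ppargc1b did not overlap. Mecom, the closest relative of Prdm16, lay at -0.37 (-0.75 to 0.01), close to Prdm16. Among elongases, Elovl1 (-0.08, -0.24 to 0.07), Elovl4 (0.11, -1.07 to 1.29) and Elovl5 (-0.10, -0.24 to 0.03) were within counting error, and Elovl6, which acts on fatty acids of de novo synthesis, was at 0.40 (0.14 to 0.66). Elovl6 and Elovl3 differed in direction, each beyond counting error. Ebf1 was at 0.03 (-0.06 to 0.12) and Ebf3 at -0.24 (-0.43 to -0.04), values whose intervals overlapped that of Ebf2. The other deiodinases were nearly undetected, with 8 and 0 reads for Dio1 and 0 and 2 for Dio3.

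**Figure D4:**
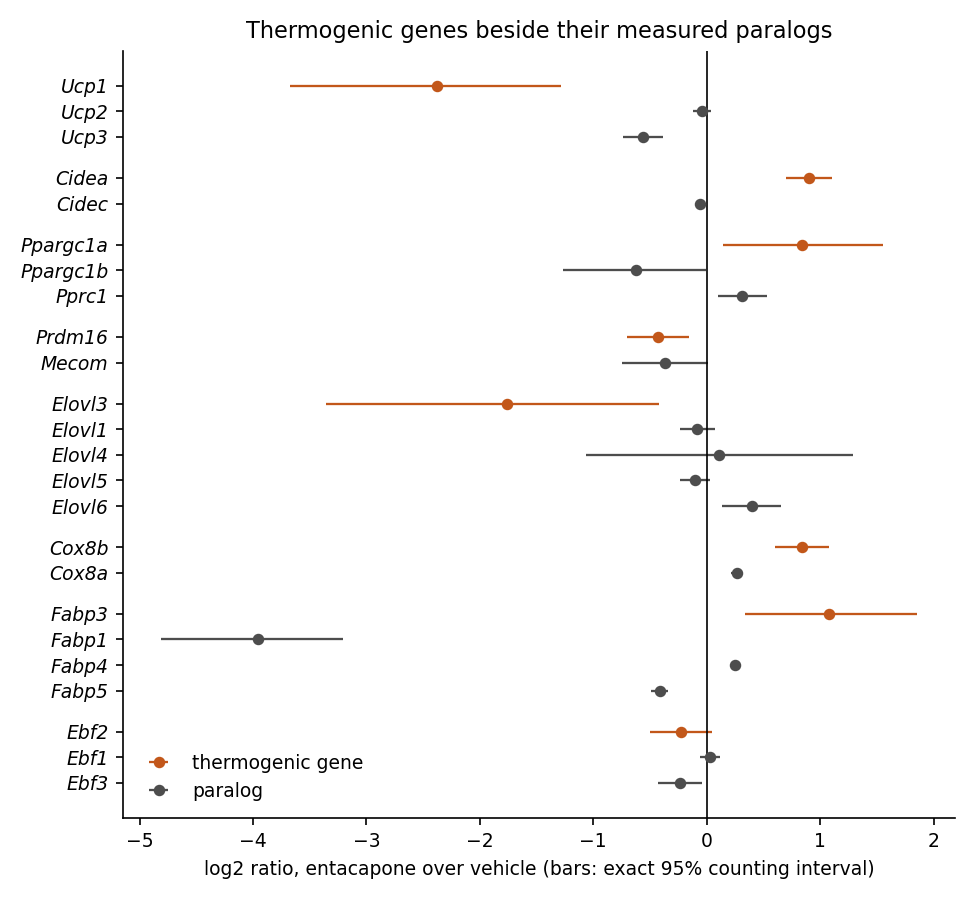
Log2 ratio of entacapone over vehicle, with exact 95% counting intervals, for the thermogenic genes (orange) and their measured paralogs (grey), grouped by family. Cidea lies to the right of Cidec, Cox8b of Cox8a and Ppargc1a of Ppargc1b, and Ucp1 lies to the left of Ucp2 and Ucp3.

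Other effector and marker genes of brown and beige fat went both ways. Of 32 listed, 25 were measured, with 12 lower and 5 higher beyond counting error, beside 21.1% and 20.2% of all measured genes. Their median log2 ratio was -0.20. That median was -0.07 with no minimum level and -0.11 with a minimum of 5 CPM. The lowest were Slc27a2, a fatty acid transporter also abundant in liver, with 105 and 2 reads (-5.60, -8.67 to -3.72), and Plin5, a droplet protein of oxidative tissues (-0.76, -1.01 to -0.52). The highest were Adrb3, the beta-adrenergic receptor of adipocytes, at 106 CPM with vehicle and 207 CPM with entacapone (0.96, 0.86 to 1.05), and Pdk4, which restrains pyruvate oxidation (0.53, 0.48 to 0.58). Adrb3 was the only one of the 25 that was at least 1.5-fold higher beyond counting error, as were 4.16% of all measured genes. At the same limit 4 of the 25 were lower, beside 7.9% of all measured genes. Cox7a1, like Cox8b a muscle and brown fat form of a cytochrome c oxidase subunit, had 81 and 80 reads (0.09, -0.37 to 0.56), an interval that ends below that of Cox8b.

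Of 28 listed brown fat transcriptional regulators, 26 were measured, with 9 lower and 5 higher beyond counting error and a median of -0.03. The shares over all measured genes were 21.1% lower and 20.2% higher. Lhx8, a homeobox gene of brown fat, had 202 and 118 reads (-0.67, -1.01 to -0.33), and Ppara, the fatty acid sensing nuclear receptor, had 111 and 65 (-0.66, -1.13 to -0.21). Tbx1, used as a beige marker, was highest at 0.66 but within counting error (-0.10 to 1.44), followed by Tle3, a corepressor that opposes Prdm16, at 0.50 (0.41 to 0.59). Zic1, which marks classical brown fat, had 1 and 3 reads.

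Partners of PGC-1alpha and other genes of mitochondrial biogenesis differed by small amounts. Of 19 listed, 17 were measured, with 8 higher and 1 lower beyond counting error, beside 20.2% and 21.1% of all measured genes. Their median was 0.11. Twnk, the mitochondrial DNA helicase (0.51, 0.21 to 0.81), and Sirt3, a mitochondrial deacetylase (0.47, 0.22 to 0.73), were highest. Gabpa, a factor for nuclear mitochondrial genes, was lower at -0.20 (-0.39 to -0.01), and Tfb1m had the lowest value at -0.21 (-0.85 to 0.42). None of the 17 reached 1.5-fold in either direction.

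Thyroid hormone genes, set beside Dio2, had 4 higher and 4 lower beyond counting error among 10 measured of 14 (median -0.01). The transporter Slc16a10 was lowest (-0.71, -0.91 to -0.50), and the receptor Thra was among the higher genes (0.29, 0.18 to 0.40). White fat selective genes, of which all 14 were measured, had 8 lower and 3 higher beyond counting error (median -0.12). For both lists the shares over all measured genes were 21.1% lower and 20.2% higher. Ccn5 (-1.41, -1.61 to -1.20) and Mest (-1.23, -1.28 to -1.17) were lowest, and the adipokine gene Retn (0.54, 0.50 to 0.58) and Nrip1 (0.39, 0.27 to 0.52), a corepressor that keeps Ucp1 low in white fat, were highest.

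**Figure D5:**
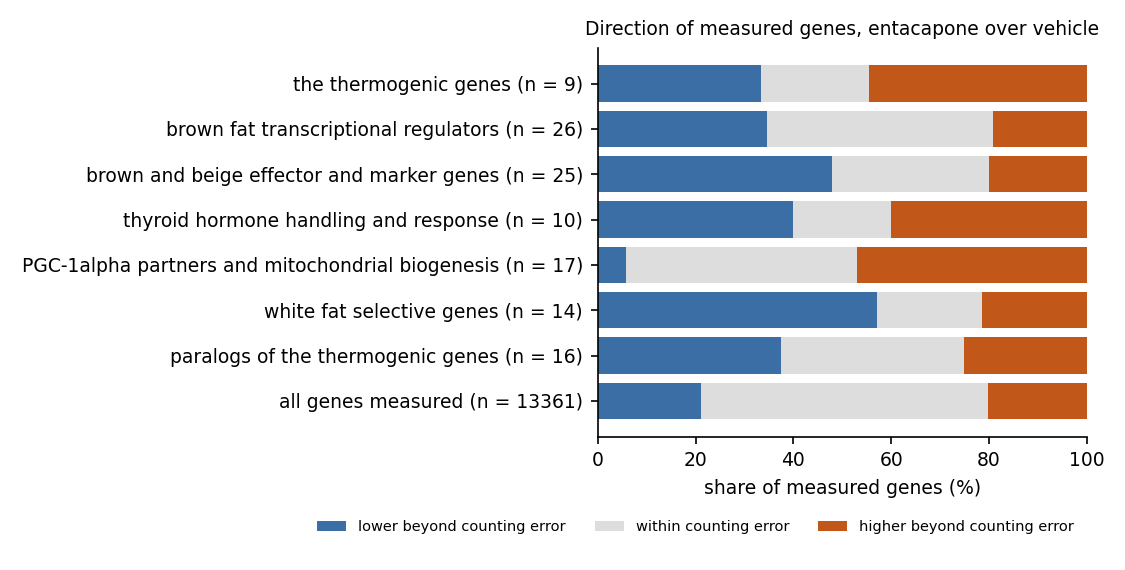
Share of measured genes (horizontal, in percent) that were lower beyond counting error (blue), within it (grey) or higher (orange) in the entacapone library, for the thermogenic genes, 6 related lists and all 13361 measured genes. Effector and marker genes have 12 of 25 in blue, and the PGC-1alpha list has 8 of 17 in orange. All measured genes have 21.1% in blue and 20.2% in orange.

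The protein-coding neighbours of these genes on the chromosome were read alongside. Next to Ucp1, Elmod2 lay 14180 bases away with a log2 ratio of -0.45 (-0.63 to -0.28), and Tbc1d9 was at -0.30 (-0.63 to 0.02), both above the interval of Ucp1. Beside Cidea, Impa2 was at -0.08 (-0.67 to 0.50) and Tubb6 at 0.21 (0.06 to 0.37). Psmd13, only 302 bases from Cox8b, was at 0.20 (0.10 to 0.31), below the interval of Cox8b, and Nlrp6 on its other side had 14 and 1 reads. Elovl3 stood between Nolc1 (0.13, -0.05 to 0.30) and Gbf1 (0.12, 0.00 to 0.25), both above its own interval. Around Ppargc1a, Adgra3 was at -0.35 (-0.53 to -0.19) and Dhx15 at -0.03 (-0.17 to 0.11). Next to Ebf2, Ppp2r2a was at 0.19 (0.04 to 0.34) and Cdca2 at -0.03 (-1.01 to 0.93), and next to Otop1, Tmem128 was at -0.28 (-0.55 to -0.02). Snrnp40 and Serinc2 flanked Fabp3 at 0.06 (-0.21 to 0.34) and, on 9 and 17 reads, 1.03 (-0.22 to 2.38). Cep128, on one side of Dio2, was at -0.23 (-0.76 to 0.29). Arhgef16 and Actrt2 beside Prdm16, Nrxn3 beside Dio2 and Drd5 beside Otop1 had at most 8 reads in either library.

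Counted reads came to 13620056 with vehicle and 12979673 with entacapone, and markers of several tissues differed between them. Adipocyte markers were abundant in both, at a summed 54382 and 57106 CPM, with 6 of 12 higher and 6 lower beyond counting error and none at 0. Skeletal muscle, which also expresses Cox8b, Fabp3, Ppargc1a and Ucp3, had 16 of 17 measured markers higher and 0 lower (median log2 ratio 0.74, sum 1616 against 2538 CPM), with Tnnc2 listed at 0 in both. Cox8b, Fabp3 and Ppargc1a were higher as well, whereas Ucp3 was lower (-0.56, -0.74 to -0.38). Hepatocyte markers were lower in all 16 measured (median -2.89, sum 483 against 106 CPM), in the same direction as Slc27a2, Dio1, Fabp1 and Elovl3. Skin and sebaceous gland markers were higher in 9 of 13 and lower in 0 (median 1.25, sum 63.1 against 160.3 CPM, with Awat1 at 0 in the entacapone library), the direction opposite to Elovl3. Fibroblast and progenitor markers, cells in which Ebf2 and Prdm16 may also be expressed, were lower in 12 of 14 (median -0.58, sum 8216 against 5290 CPM), and macrophage markers in 13 of 15 (median -0.95, sum 10675 against 10181 CPM, most of it Lpl, which adipocytes also express). Endothelial markers (median -0.04) had 4 higher and 3 lower of 11, and smooth muscle markers (median -0.06) had 2 higher and 5 lower of 9. The 4 measured nerve and Schwann cell markers (median -0.07) had 1 higher and 1 lower. The medians of these 3 lists and of the adipocyte markers (-0.01) were thus near 0. The sympathetic genes Th, Dbh and Npy had at most 1 read. The part of these tissues in the values of the thermogenic genes was not tested.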

How the data were processed

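Each library's deposited file holds raw read counts per Ensembl gene, made by the authors from poly(A)-selected RNA with the TruSeq RNA v2 kit (per the labels' protocols) using TopHat2 2.1.1, HTSeq 0.6.0 and build mm10 (per the submitters' processing notes). The annotation release, counting mode and strand setting are not stated there. Of 37315 genes, 35533 were matched by identifier to GENCODE M21 (GRCm38, the same assembly as mm10), and the rest (0.181% and 0.188% of counts) stayed in the library sizes.

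CPM used TMM factors of 1.01 and 0.986 (edgeR 4.0.16). Ratio intervals are Clopper-Pearson intervals of the share of a gene's reads that came from entacapone (scipy 1.17.1). They were tested on simulated Poisson counts, which hold counting error only and no variation between mice or libraries. Reads carry no molecular identifiers. The minimum for comparison was a mean of 1 CPM, and list medians used a pseudocount of 0.5 CPM. The genes, lists and limits were chosen with earlier results of these data known. The text names all 10 thermogenic genes, their measured paralogs and neighbours, and from each pathway list the 2 highest and 2 lowest measured genes, apart from a few not reported here, and any other gene was chosen after its values were seen. The alternatives tried were other scalings, intervals, pseudocounts, minimum levels and gene lengths. Intervals of the ratio between genes that neighbour each other by level were added after the values were seen.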

Additional observations from a re-analysis of the deposited data

How the results depend on the processing

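No paired analysis was possible because each group holds 1 library, and no replicate could be left out. All 10 thermogenic genes kept the sign of their ratio under DESeq2 1.42.0 size factors, total counts, upper-quartile scaling, TMM without mitochondrial and marker genes, and a pseudocount of 0.5 CPM, and the scalings shifted log2 ratios by -0.04 to 0.01. With a 99% interval the difference in Ppargc1a (0.84, -0.06 to 1.78) no longer lay beyond counting error. With a Wilson interval the one in Dio2 did (-1.59, -3.13 to -0.05), as did that in Otop1 with total counts (-0.24, -0.46 to -0.02). Ucp1, Elovl3, Fabp3 and Ppargc1a rest on few reads. With a minimum of 5 CPM, which leaves these 4 genes out, outside counting error there were 2 thermogenic genes higher and 1 lower, 2 were at least 1.5-fold higher and 0 lower, and 0 were at least 2-fold higher and 0 lower. That minimum dropped 2599 of the 13361 measured genes. Over the genes left, 84 were higher and 190 lower at 2-fold, against 222 and 468. At 1.5-fold 335 were higher and 643 lower, against 556 and 1056. The share of the genes left that lay beyond counting error at any size was not computed. The mean of the members, in place of the median, was -0.28 for white fat selective genes and -0.28 for paralogs. The order of the genes by level per length was the same with the longest transcript in each library.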
